A study of Mus musculus with 6 samples.

Results

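Transcripts of 30 interferon sensing and signalling genes were compared between 4T1 parental (P) cells and their axitinib-resistant (AxR) derivative. The genes were taken by name from the 53465 genes of the deposited table. They are an interferon, interferon receptor chains, JAK kinases, STAT factors, interferon regulatory factors (IRFs), RNA sensors, the adaptors and kinases below the sensors, and negative regulators. All 30 were found in the table, and 29 had enough counts to be tested. 4T1 is a mouse mammary carcinoma line from Balb/c mice. AxR cells came from a lung or lymph node metastasis that arose after primary tumor surgery in mice given axitinib, a VEGF receptor inhibitor, at 100 mg/kg/day, and were then kept in culture with 0.5 μM axitinib for over 2 months. P cells are the line of origin, described in the study as treated with vehicle. Only the AxR samples carry a treatment label, although the culture description attached to the P samples also mentions axitinib. The medium was RPMI with serum for both lines. Each line was sequenced in 3 poly(A)-selected libraries of 15495260 to 17294525 estimated counts. A single AxR line was sequenced and the sources do not say whether it is 1 clone, so drug exposure, passage through the mouse and selection cannot be told apart. Neither the labels nor the study's methods say whether replicates were separate cultures, and p-values measure the spread between these libraries only.

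Interferons are secreted when a cell's sensors meet foreign or misplaced nucleic acid. MDA5 (Ifih1), RIG-I (Ddx58) and TLR3 recognise RNA and signal through the adaptors MAVS and TRIF (Ticam1) to the kinases TBK1 and IKKε, which activate IRF3 and IRF7 and so the interferon genes. Secreted interferon binds the IFNAR or IFNGR receptor pair on the cell surface, JAK1, TYK2 and JAK2 phosphorylate STAT factors, and complexes that contain STAT2 and IRF9 switch on interferon-stimulated genes. Many components of the pathway are themselves interferon-stimulated, while SOCS1, SOCS3 and USP18 restrain it.

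The pathway did not move as a block. All 4 RNA sensors rose, as did Stat2, Irf9 and 5 of 6 adaptors and kinases below the sensors, while 3 of the 4 receptor chains fell. Of the JAK kinases, Jak2 fell and Tyk2 rose, at log2 fold changes of -0.31 and 0.22, and Jak1 did not pass the test. Ikbke and Ticam1, among the 5 adaptors and kinases that rose, were at 0.34 and 0.32. No interferon gene exceeded a single count. By the quasi-likelihood test of edgeR, with Benjamini-Hochberg adjusted p below 0.05 taken over 13550 genes, 16 of the 29 tested genes rose in AxR cells and 8 fell. Of all genes tested 63.5% passed, 32.8% as higher and 30.8% as lower. The share of higher genes among the 29 was 55.2%. That of lower genes was 27.6%, near the share of all genes that fell. The median log2 fold change was 0.32, against 0.0058 over all genes. A log2 fold change of at least 1 was reached by 8 genes that rose and by 1 that fell, where 7.99% and 4.72% of all genes did so. Those that rose so far were Irf7, Dhx58, Usp18, Stat2, Ifih1, Tlr3, Irf1 and Irf9, and Irf8 fell. In 16 of the 29 genes every AxR library lay above every P library and in 8 below, where 35.1% and 33.2% of all genes did so, 68.3% in either direction. For such a gene 3 against 3 libraries give p = 0.1 in an exact two-sided permutation test, and no smaller value is possible. Dhx58 and Usp18 passed the filter on low counts only through the AxR libraries. In RNA from whole cultures, fewer cells expressing a gene and less RNA per cell cannot be told apart.

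**Figure D1:**
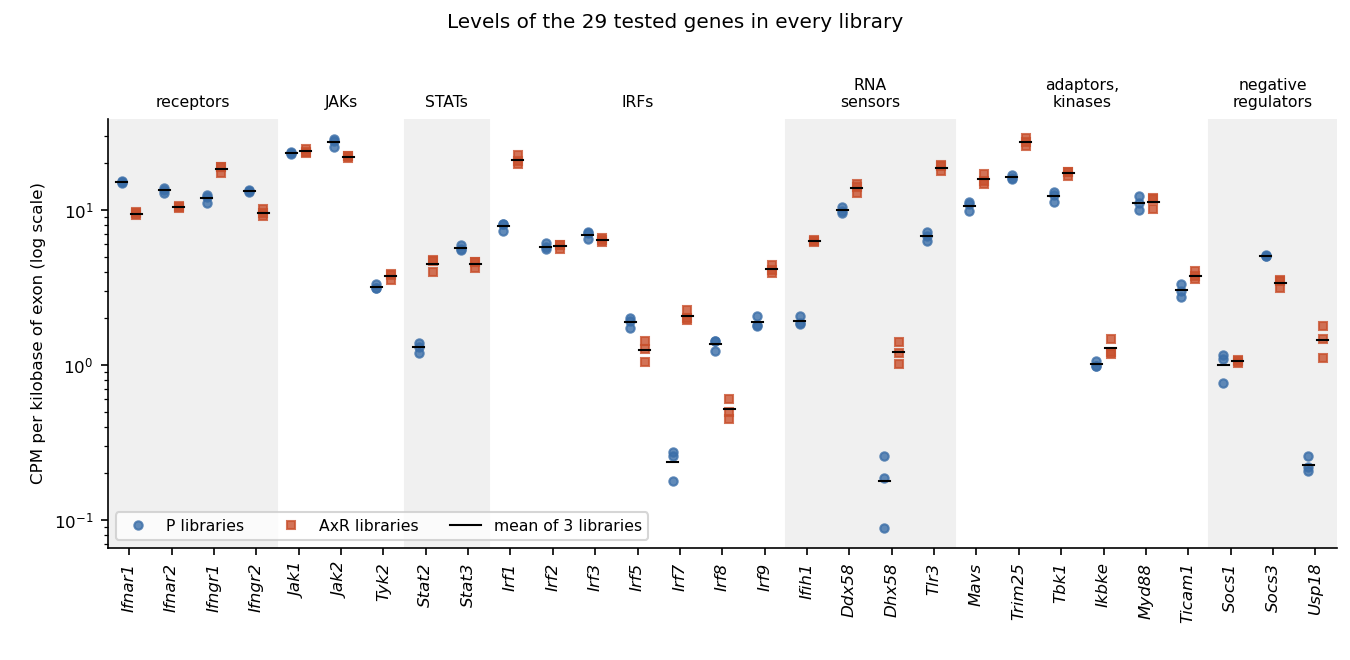
Level of each of the 29 tested genes in every library, in CPM (estimated counts scaled to a normalized library of 1000000) per kilobase of exon, on a log axis. Circles are the 3 P libraries, squares the 3 AxR libraries and black lines their means, with genes ordered by step of the pathway. Irf7, Dhx58 and Usp18 sit lowest in P cells, at 0.24, 0.18 and 0.23 CPM per kilobase, and reach 2.08, 1.20 and 1.46 in AxR cells.

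Markers of other cell types were low or undetected. Summed over 8 mammary carcinoma epithelial markers, which include Krt8, Krt18, Epcam and Cdh1, levels were 1577 to 1736 CPM in P and 2358 to 2447 CPM in AxR libraries. Of the 7 tested, 5 rose, Krt19 fell (log2 fold change -1.31) and Esr1 did not pass, while Krt5 had no count. The 15 leukocyte markers summed to 6.14 to 8.35 CPM in P and 16.6 to 17.5 CPM in AxR libraries. Cd68 and Cd14, at log2 fold changes of 1.24 and 1.26, made up most of this. Without them the sums were 0.326 to 0.520 and 0.446 to 0.635 CPM, with 11 of those 13 markers, Ptprc among them, at or under 3 counts in every library. Fibroblast, endothelial and lung epithelial lists summed to at most 1.28, 0.693 and 4.21 CPM in any library, the last led by Foxj1, at a log2 fold change of 2.72. Their part in the results was not tested.

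Short stretches of promoter around interferon-type motifs are shown for 8 of the genes, because they put genes that rose beside genes with the same letters that did not. The stretches come from the RefSeq start sites of GRCm38.p6, with a window of 250 bases before and 50 bases after each start, which was given for 28 of the 30 genes (31 windows, none for Dhx58 and Usp18). Capitals mark GAAA, any 2 bases and GAAA, the core of the interferon-stimulated response element that STAT2 and IRF9 or IRFs can bind, searched on both strands, or TTCNNNGAA, the core of the gamma-activated site that STAT dimers can bind, which reads the same on both strands. The first motif was in 3.44% of all 32851 windows, or in 3.99% of 27025 genes, and TTCNNNGAA in 8.30% of windows, or in 9.55% of genes. The first was found in windows of 6 of the 28 genes (Stat2, Ifih1, Ddx58, Socs1, Irf2 and Myd88), and TTCNNNGAA in 7 (Ifnar1, Ifnar2, Irf1, Irf2, Irf8, Myd88 and Socs3). Stat2, Ifih1 and Ddx58 rose, at log2 fold changes of 1.79, 1.71 and 0.48. Socs1, Irf2 and Myd88, at 0.066, 0.0046 and 0.016, did not pass the test. Of the 7 genes with TTCNNNGAA, Irf1 rose and Ifnar1, Ifnar2, Irf8 and Socs3 fell. These letters describe the window only, and no binding was measured.
Stat2, chr10:128270251-128270310, plus strand, motif on the minus strand: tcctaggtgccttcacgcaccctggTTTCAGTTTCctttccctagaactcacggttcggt
Ifih1, chr2:62646206-62646235, minus strand, motif within the transcribed 5′ end: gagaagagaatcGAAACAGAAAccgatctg
Ddx58, chr4:40239804-40239833, minus strand, motif on the opposite strand just after the start: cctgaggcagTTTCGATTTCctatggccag
Socs1, chr16:10785582-10785641, minus strand, with the motif present as an overlapping pair: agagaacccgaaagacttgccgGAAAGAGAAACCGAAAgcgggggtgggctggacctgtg
Irf2, chr8:46739502-46739531, plus strand, with both motifs: gtGAAAATGAAAttgacttTTCCGAGAAat
Myd88, chr9:119340042-119340071, minus strand, with both motifs overlapping: gcggagcTTCTCGGAAAGCGAAAgaaggag
Irf1, chr11:53769898-53769957, plus strand, gamma-activated core: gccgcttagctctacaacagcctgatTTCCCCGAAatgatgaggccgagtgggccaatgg
Irf8, chr8:120736170-120736229, plus strand, gamma-activated core present as a pair: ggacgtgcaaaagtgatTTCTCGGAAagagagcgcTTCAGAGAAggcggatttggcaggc

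Interferon transcripts were at or next to 0 counts. Ifnb1, which encodes interferon beta (ENSMUSG00000048806.4, chromosome 4 of GRCm38 from 88522025 to 88522774), had 0 counts throughout, and with 3 counts as the limit that a count of 0 allows, its level could reach 0.171 to 0.196 CPM in the 6 libraries (counting error only). Of 19 other interferon genes, which were the interferon alpha genes, Ifnab, Ifnz, Ifng, Ifne, Ifnk, Ifnl2 and Ifnl3, 16 also had no count anywhere. The exceptions, Ifng, Ifne and Ifnk, had at most 1 count in any library. A difference in interferon transcripts between the lines was therefore not detectable at this depth.

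Receptor chains changed in opposite directions by chromosome. Ifnar1 and Ifnar2 encode the chains of the type I interferon receptor. Ifnar1 (ENSMUSG00000022967.12, chromosome 16 from 91485238 to 91507441, plus strand) had 89.2, 91.2 and 90.6 CPM in P libraries and 54.8, 56.5 and 57.6 CPM in AxR libraries. Its log2 fold change was -0.68 (SE 0.053, adjusted p = 2.93e-08 by edgeR), the largest fall among the receptors. Ifnar2 had 45.0, 42.7 and 46.4 CPM in P and 34.9, 35.2 and 34.5 CPM in AxR libraries, a log2 fold change of -0.36 (SE 0.064, adjusted p = 0.00017 by edgeR). Both chains of the receptor were thus lower in every AxR library than in any P library.

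The interferon gamma receptor split. Ifngr2, the signal-transducing chain, had 50.3, 50.3 and 49.6 CPM in P and 34.5, 35.9 and 38.2 CPM in AxR libraries, a log2 fold change of -0.47 (SE 0.064, adjusted p = 1.25e-05 by edgeR). Ifngr1, the ligand-binding chain, had 31.4, 34.8 and 35.5 CPM in P and 49.3, 54.2 and 53.8 CPM in AxR libraries, a log2 fold change of 0.63 (SE 0.070, adjusted p = 1.44e-06 by edgeR). Per kilobase of exon, the level of Ifngr1 was 0.895 ± 0.063 times that of Ifngr2 in P cells and 1.92 ± 0.073 times in AxR cells (SD, n = 3 each), so the order of the chains was reversed in each AxR library. This ratio and the level ratios given for other pairs of genes were picked after their values were seen.

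The chains that fell are neighbours. Ifnar2, Il10rb, Ifnar1 and Ifngr2 lie within 193 kb of chromosome 16, in a cluster of cytokine receptor genes. Il10rb, which encodes a chain shared by the receptors for interferon lambda and IL-10, also fell, by 0.65 on the log2 scale. The 22 other tested genes within 1000 kb of the Ifnar1 start had a median log2 fold change of -0.65, and 20 of them fell and 1 rose. The gene that rose, Gm7856 at 1.27, was named after its value was seen. Over the 397 tested genes of chromosome 16 the median was -0.32, and 59.7% of them fell. Of all genes tested 30.8% fell and 32.8% rose. Taking for each receptor the median of the 50 tested genes nearest in order along the chromosome, the log2 fold change minus that median was -0.05 for Ifnar1, 0.28 for Ifnar2 and 0.18 for Ifngr2. Ifngr1 lies on chromosome 10, where the corresponding neighbours had a median of 0.48, leaving 0.15. Each receptor chain thus moved in the direction of its neighbours. The part of the region in these changes was not tested, as no DNA was measured.

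**Figure D2:**
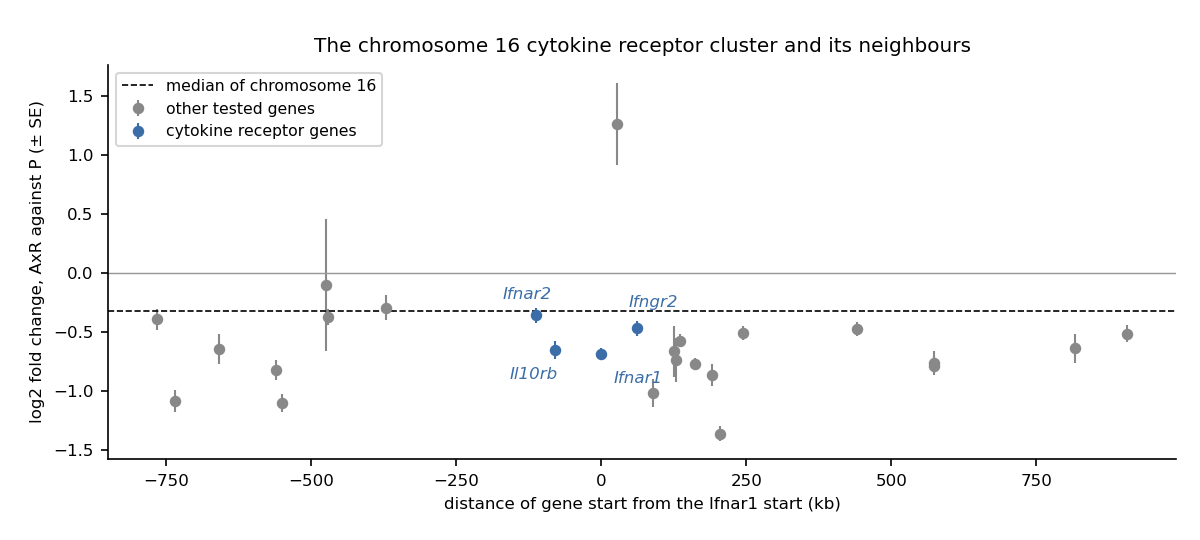
Log2 fold change of AxR against P (± SE) for each tested gene within 1000 kb of Ifnar1, placed by the distance of its start from the Ifnar1 start in kb. The 4 cytokine receptor genes are in blue, other genes in grey, and the dashed line is the chromosome 16 median of -0.32. All but 1 of the points lie below 0, and the receptor genes lie among their neighbours.

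Of the kinases that the receptors use, Jak2 fell, Tyk2 rose and Jak1 did not pass, with log2 fold changes from -0.31 to 0.22. Jak1, which serves both receptor types, ranged from 166 to 170 CPM in P and 168 to 179 CPM in AxR libraries and did not pass the test (log2 fold change 0.037, 95% interval -0.066 to 0.14). Jak2, the partner of IFNGR2, was at 128 to 143 CPM in P and 108 to 112 CPM in AxR libraries, a log2 fold change of -0.31 (SE 0.055, adjusted p = 0.000168 by edgeR). Tyk2, the partner of IFNAR1, was at 21.5 to 22.7 and 24.2 to 26.7 CPM. Its log2 fold change of 0.22 passed by edgeR (adjusted p = 0.0148) but not by DESeq2 (adjusted p = 0.0707), nor without P replicate 3 (0.0533) or AxR replicate 2 (0.0597). Per kilobase, Jak2 and Jak1 were the 2 highest of the 30 genes in P cells, at 27.3 and 23.3 CPM.

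Stat2 and Irf9, whose proteins act together on interferon-stimulated genes, both rose. Stat2 (ENSMUSG00000040033.16, chromosome 10 from 128270559 to 128292849, plus strand) had 8.27, 7.68 and 7.11 CPM in P libraries and 28.3, 27.9 and 23.7 CPM in AxR libraries. Its log2 fold change of 1.79 (SE 0.10, adjusted p = 8.50e-10 by edgeR) is a 3.45-fold rise. Irf9 (ENSMUSG00000002325.15, chromosome 14 from 55603571 to 55610030, plus strand) had 9.66, 11.1 and 9.78 CPM in P and 22.1, 23.7 and 20.99 CPM in AxR libraries, a log2 fold change of 1.12 (SE 0.092, adjusted p = 5.47e-08 by edgeR). For both, every AxR library lay far outside the range of the P libraries. Exons of Irf9 overlap Rnf31 on the same strand, which had a log2 fold change of 0.22. Per kilobase, means in P cells were 1.297 CPM for Stat2 and 1.89 for Irf9, and in AxR cells 4.49 and 4.13.

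Stat3, which transmits IL-6 family signals, fell in contrast to Stat2. It ranged from 52.4 to 56.7 CPM in P and from 40.0 to 43.9 CPM in AxR libraries, a log2 fold change of -0.35 (SE 0.064, adjusted p = 0.000227 by edgeR). The per-kilobase ratio of Stat2 to Stat3 was 0.228 ± 0.024 in P and 1.01 ± 0.13 in AxR cells (SD, n = 3 each). Exons of Stat3 overlap those of Stat5a on the opposite strand, and Stat5a rose.

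The interferon regulatory factors divided into those that rose, those that fell and those that did not pass the test. Irf7, the factor that amplifies interferon alpha transcription and is itself strongly interferon-inducible, rose most of all 29 genes. Irf7 (ENSMUSG00000025498.15, chromosome 7 from 141262706 to 141266481, minus strand) had 0.67, 1.04 and 0.98 CPM in P libraries, or 11, 18 and 15 counts, and 7.62, 8.55 and 7.40 CPM in AxR libraries. The log2 fold change was 3.12 (SE 0.19, adjusted p = 2.38e-09 by edgeR), with no overlap between the lines. Exons of Irf7 overlap Phrf1 on the opposite strand, which had 98.6 CPM in P and 98.7 CPM in AxR cells.

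Irf1 is a broad activator of interferon-gamma response and antigen presentation genes, and Irf2 competes with it for the same sites. Irf1 had 29.3, 32.0 and 32.4 CPM in P and 79.1, 90.0 and 82.6 CPM in AxR libraries, a log2 fold change of 1.42 (SE 0.068, adjusted p = 1.30e-10 by edgeR). Irf2 ranged from 41.3 to 45.1 CPM in P and from 41.5 to 44.0 CPM in AxR libraries, and the 95% interval of its log2 fold change ran from -0.13 to 0.14. The per-kilobase ratio of Irf1 to Irf2 was 1.36 ± 0.13 in P and 3.62 ± 0.24 in AxR cells (SD, n = 3 each). By level per kilobase Irf1 moved from place 12 of the 30 genes in P cells to place 4 in AxR cells.

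Irf3, the constitutive factor that TBK1 activates, did not pass the test. It ranged from 22.5 to 24.7 CPM in P and from 21.5 to 22.8 CPM in AxR libraries (log2 fold change -0.10, 95% interval -0.26 to 0.053). Its exons overlap Bcl2l12 on the opposite strand. The per-kilobase ratio of Irf7 to Irf3 was 0.034 ± 0.0087 in P and 0.324 ± 0.029 in AxR cells (SD, n = 3 each), so Irf7 remained the lower of the pair in both lines.

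Irf8 and Irf5, known best from myeloid and lymphoid cells, fell. Irf8 (ENSMUSG00000041515.9, chromosome 8 from 120736358 to 120756694, plus strand) had 10.1, 8.66 and 10.1 CPM in P and 3.18, 4.27 and 3.53 CPM in AxR libraries, a log2 fold change of -1.39 (SE 0.14, adjusted p = 6.34e-07 by edgeR). It was the only one of the 29 genes to fall by 1 or more on the log2 scale. Irf5 had 5.04, 5.60 and 5.87 CPM in P and 3.05, 4.15 and 3.70 CPM in AxR libraries, a log2 fold change of -0.60 (SE 0.16, adjusted p = 0.00382 by edgeR). Exons of Irf5 overlap Tnpo3, which had 159 CPM in P and 146 CPM in AxR cells. Of the leukocyte markers, Cd68 and Cd14 rose, at log2 fold changes of 1.24 and 1.26. The others were at the near-zero sums given above in both lines. Whether other cell types had a part in the falls of Irf8 and Irf5 was not tested.

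All 4 RNA sensors rose, with a median log2 fold change of 1.59, where 32.8% of all genes rose. Ifih1 encodes MDA5, which binds long double-stranded RNA (ENSMUSG00000026896.14, chromosome 2 from 62595798 to 62646255, minus strand). It had 16.8, 15.3 and 15.1 CPM in P libraries and 50.8, 52.5 and 51.2 CPM in AxR libraries, a log2 fold change of 1.71 (SE 0.072, adjusted p = 3.47e-11 by edgeR). Tlr3, the endosomal double-stranded RNA receptor, had 35.2, 33.0 and 37.6 CPM in P and 102, 99.5 and 92.4 CPM in AxR libraries, a log2 fold change of 1.47 (SE 0.064, adjusted p = 5.34e-11 by edgeR). For both genes the lines did not overlap.

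Ddx58 encodes RIG-I, the sensor of 5′-triphosphate RNA, and Dhx58 encodes LGP2, a relative of RIG-I and MDA5 without a signalling domain. Ddx58 was the sensor that changed least, at 67.6 to 73.7 CPM in P and 90.4 to 103 CPM in AxR libraries, a log2 fold change of 0.48 (SE 0.061, adjusted p = 6.65e-06 by edgeR). Dhx58 had 0.61, 0.29 and 0.85 CPM in P, or 10, 5 and 13 counts, and 3.30, 4.59 and 3.93 CPM in AxR libraries, a log2 fold change of 2.77 (SE 0.30, adjusted p = 1.03e-06 by edgeR). Ddx58 stayed the higher of the related sensors per kilobase in both lines, and the ratio of Ifih1 to Ddx58 went from 0.193 ± 0.0028 in P to 0.458 ± 0.028 in AxR cells (SD, n = 3 each).

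**Figure D3:**
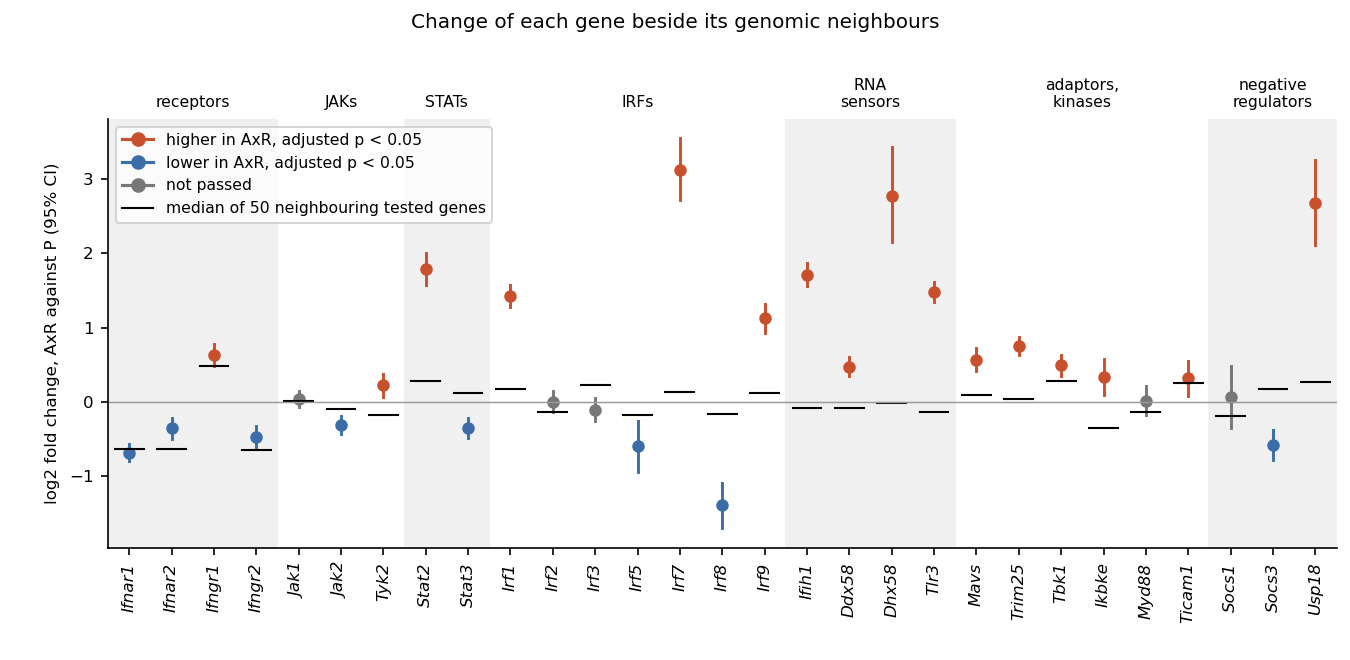
Log2 fold change of AxR against P with its 95% interval for each of the 29 tested genes, by step of the pathway. Red and blue mark genes higher and lower at an adjusted p under 0.05, grey genes that did not pass, and black lines the median of the 50 tested genes nearest along the chromosome. Irf7, Dhx58 and Usp18 differ most from the median of their neighbours, by 2.99, 2.79 and 2.40. The 4 receptor chains differ by at most 0.28, Trim25 by 0.71, Ikbke by 0.69, Ticam1 by 0.063 and Irf8 by -1.23.

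Below the sensors, 5 of 6 adaptors and kinases rose, each by less than 1 on the log2 scale, where 32.8% of all genes rose. By DESeq2, or at an adjusted p under 0.01 by edgeR, 3 of the 6 rose. Trim25, the ubiquitin ligase that activates RIG-I, had 96.9, 93.1 and 91.7 CPM in P and 159, 167 and 150 CPM in AxR libraries, a log2 fold change of 0.75 (SE 0.055, adjusted p = 1.56e-08 by edgeR). By level per kilobase it was the highest of the 30 genes in AxR cells, at 27.5 CPM. Mavs, the mitochondrial adaptor of RIG-I and MDA5, had 36.5, 37.4 and 33.1 CPM in P and 49.5, 51.8 and 57.5 CPM in AxR libraries, a log2 fold change of 0.57 (SE 0.074, adjusted p = 7.49e-06 by edgeR).

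The kinases followed with smaller differences. Tbk1 ranged from 44.1 to 50.9 CPM in P and from 64.6 to 68.9 CPM in AxR libraries, a log2 fold change of 0.49 (SE 0.065, adjusted p = 8.34e-06 by edgeR), where its chromosomal neighbours had a median of 0.28. Ikbke, which encodes IKKε, and Ticam1, which encodes the TLR3 adaptor TRIF, had log2 fold changes of 0.34 and 0.32 (adjusted p = 0.0168 and 0.0195 by edgeR). By DESeq2 neither passed (adjusted p = 0.0577 and 0.0767). Ikbke also missed without AxR replicate 2 (0.0988), and Ticam1 without P replicate 3 (0.0820) or AxR replicate 1 (0.0632). The chromosomal neighbours of Ikbke had a median of -0.35, and those of Ticam1 a median of 0.25. Myd88, the adaptor of most other Toll-like receptors, did not pass, at 25.8 to 31.9 CPM in P and 26.0 to 30.9 CPM in AxR libraries (95% interval of the log2 fold change -0.18 to 0.21). Its exons overlap Acaa1a, which rose.

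The negative regulators went 3 ways. Usp18 binds IFNAR2, dampens signalling from it and removes ISG15 from proteins, and is an interferon-stimulated gene. It had 0.61, 0.58 and 0.72 CPM in P, or 10, 10 and 11 counts, and 3.11, 4.97 and 4.10 CPM in AxR libraries, a log2 fold change of 2.67 (SE 0.27, adjusted p = 4.56e-07 by edgeR). Socs3, the inhibitor of gp130 and JAK signalling that STAT3 induces, fell, and whether its fall is linked to that of Stat3 was not tested. Socs3 had 14.8, 14.6 and 14.5 CPM in P and 9.08, 10.1 and 10.1 CPM in AxR libraries, a log2 fold change of -0.58 (SE 0.095, adjusted p = 6.86e-05 by edgeR). Socs1, the main inhibitor of interferon-gamma signalling, did not pass, at 2.22 to 3.35 CPM in P and 2.98 to 3.12 CPM in AxR libraries (log2 fold change 0.066, 95% interval -0.35 to 0.48). Socs1 had 34 to 58 counts per library, with an SD of 0.61 CPM in P and 0.071 CPM in AxR libraries. A change within that interval could not be told from none in these libraries.

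The rest of the pathway, from a list of 89 further genes, had 61 tested, of which 30 rose and 20 fell in AxR cells, or 49.2% and 32.8%, where 32.8% and 30.8% of all genes did so. The share that fell was thus near that of all genes. The median log2 fold change was 0.26. Isg15, the ubiquitin-like protein that USP18 removes, had a log2 fold change of 4.94. It had 0.629 ± 0.19 CPM in P, or 7 to 14 counts, and 19.6 ± 0.52 CPM in AxR cells (SD, n = 3 each). Like Zbp1 and Unc93b1, Isg15 passed the filter on low counts only through the AxR libraries. Zbp1, a sensor of Z-form nucleic acid, had 1 count in each P library and 72 to 103 counts in AxR libraries, at least 26.2-fold higher by the floor of 3 counts per library. Tmem173, which encodes STING, the adaptor of cytosolic DNA sensing, rose at a log2 fold change of 1.95, where its neighbours had a median of 0.66. Cgas, the enzyme upstream of STING, was named after its value was seen and fell, at -0.52. In DNA sensing 3 of 8 tested genes rose and 5 fell, or 37.5% and 62.5%, where 32.8% and 30.8% of all genes did so. Of the 5, Ifi203 lay at the threshold (adjusted p = 0.0495 by edgeR) with overlapping libraries, and of the 3, Zbp1 passed the filter on low counts only through AxR cells. Chromosomal neighbours had medians of -0.42 to -0.22 for the 5 and of -0.29 to 0.66 for the 3.

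Among the other genes of this list, Stat5a, Ptpn6 (the phosphatase SHP-1) and Tlr2 rose, at log2 fold changes of 1.55, 1.95 and 1.42. Unc93b1, which carries endosomal Toll-like receptors to their compartment, was at or under 3 counts in P libraries and at 11 to 15 counts in AxR libraries, at least 3.84-fold higher. Nlrc3, a brake on STING signalling, Socs2, an inhibitor of growth hormone signalling, and Tbkbp1, a scaffold for TBK1, fell, at -2.03, -1.53 and -1.45. Of the other negative regulators, 13 of 26 rose and 8 fell, or 50% and 30.8%, the latter the same share as among all genes.

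At the output of the pathway, 20 of 20 tested genes in a list of 22 interferon-stimulated effectors rose in AxR cells. Among all genes tested the share that rose was 32.8%. The median log2 fold change was 3.59 as fitted and 3.39 with the 3 genes whose P libraries were at or under 3 counts set to their lower bounds. For 9 of the 20, fewer than 3 P libraries exceeded the filter on low counts, so they entered through AxR cells. The 4 with the highest AxR levels in CPM, Ifitm3, Parp14, Eif2ak2 and Ifit2, had log2 fold changes of 0.42, 1.15, 0.61 and 1.50, the smallest of the list. Mx1 and Ifitm1 had too few counts to test, at most 7 in any library. Several effectors, and Ifi203 and Ifi204 in the DNA sensing list, belong to families with close copies that can share reads.

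**Figure D4:**
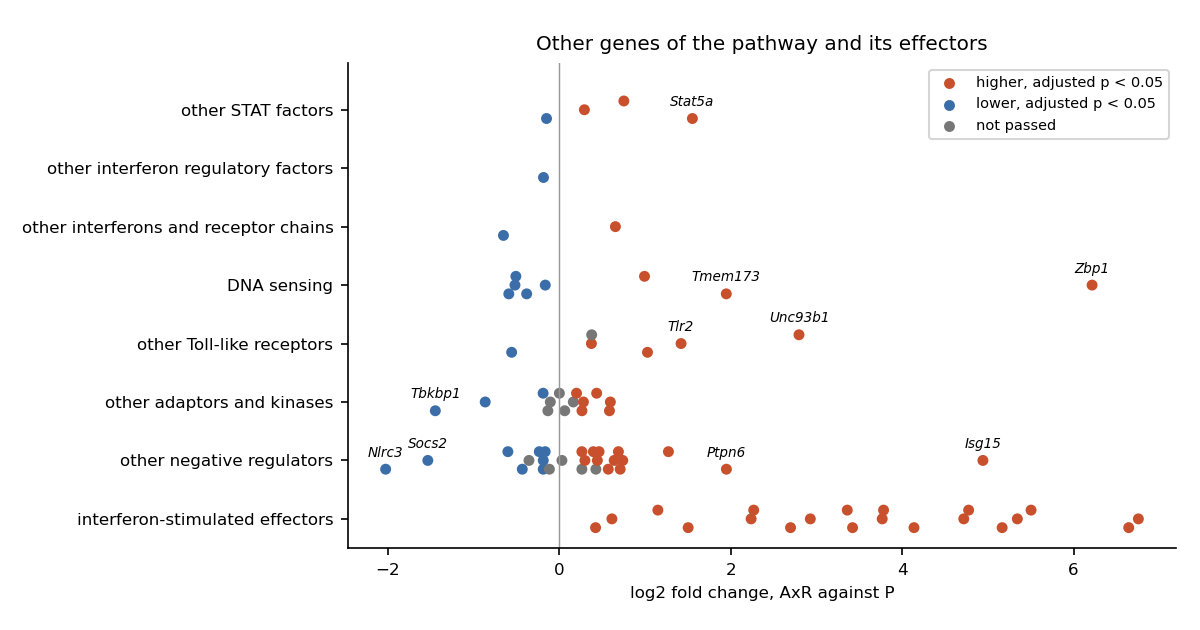
Log2 fold change of AxR against P for the tested genes of the 7 further pathway lists and of the effector list, with points spread vertically within each list only to separate them. Red and blue mark genes higher and lower at an adjusted p under 0.05 and grey those that did not pass. All 20 effectors lie above 0, while the 7 other lists together hold genes on both sides, and the points of Zbp1, Unc93b1 and 3 effectors are fitted values against P libraries at or under 3 counts.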

How the data were processed

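RNA of 3 P and 3 AxR samples was made into stranded poly(A) libraries by the authors, who, per the labels and the methods of the study, used FastQC 0.11.5, STAR 2.6.0a on GRCm38 with GENCODE M16, and RSEM 1.3.1. The authors deposited RSEM estimated counts per gene, before filtering and normalization. The strand setting of the counting is not given in the sources used here. Exons of 6 of the 30 genes overlap another gene above 1 CPM.

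Estimated counts were rounded, filtered with filterByExpr and normalized by upper quartile (factors 0.966 to 1.02). Differences were tested in R 4.3.3 by edgeR 4.0.16 (glmQLFTest, robust), with line as the only term. Benjamini-Hochberg adjustment ran over 13550 genes with a threshold of 0.05. Symbols, positions and union exon lengths came from GENCODE M21 (53360 of 53465 identifiers). Standard errors were derived from the F statistic. Floors are 3 counts per library, and lower bounds of fold changes use the P library with the highest floor, 0.196 CPM. These bounds leave out the counting error of the AxR libraries and of P libraries that had counts.

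The 30 genes and all lists were chosen with earlier results of these data known. All 30 were named, with every library where the absolute log2 fold change was at least 0.5 or the gene was a ligand or receptor. Further pathway genes were named where they passed and changed by 1 or more on the log2 scale (10 by size), and the 4 effectors with the highest AxR level. A further gene that the rule names is not reported here. Alternatives were TMM, library size only, DESeq2 1.42.0, limma-voom (limma 3.58.1), other filters, other thresholds, the replicate number as a block, and each library left out.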

Additional observations from a re-analysis of the deposited data

How the results depend on the processing

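Of the 29 tested genes, 23 kept their direction and their side of the threshold in each refit made (13 refits, and 12 for Dhx58, which was dropped by a minimum of 10 counts in every library). Tyk2, Ikbke and Ticam1 missed the threshold in the refits named beside them above. Irf2, Myd88 and Socs1, which passed in none, changed sign. Irf2, the median of the IRFs, was -0.0071 with TMM, -0.017 with library size only, -0.0083 with DESeq2 and -0.020 to 0.045 with libraries left out. Myd88 was -0.0042 with library size only and -0.051 to 0.10 with libraries left out, and Socs1, the median of the negative regulators, -0.086 to 0.18. The median of the 29 genes was 0.30 with library size only and 0.27 with at least 10 counts, and ran from 0.24 without AxR replicate 2 to 0.33 without AxR replicate 3. The sensor median was 1.47 with at least 10 counts, where 11 effectors remained testable and rose. DESeq2 and an adjusted p under 0.01 each left 3 adaptors and kinases and 0 JAK kinases higher, and leaving libraries out gave 0 to 1 JAK kinases.

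With a log2 fold change of at least 1 also required, 1083 genes rose and 640 fell, 8 and 1 of them among the 29, and 9 and 3 among the further pathway genes. Receptors and JAK kinases then had 0 in either direction, STAT factors and negative regulators 0 lower, adaptors and kinases 0 higher, and IRFs 1 lower, by edgeR's adjusted p. At an unadjusted p under 0.05 by edgeR without that requirement, 16 of the 29 genes rose and 8 fell. These counts were those of the adjusted threshold at every step of the pathway. The share of all genes at an unadjusted p was not taken.

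Same-numbered P and AxR libraries did not deviate together (correlations -0.021, -0.0061 and -0.022), so the numbers were not taken as pairs. With the replicate block, 4304 genes rose and 4023 fell, 16 and 8 of them among the 29, and no call of those 29 changed.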
